A study of Mus musculus with 52 samples.

Results

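The comparison concerned RNA from anterior pituitary vascular endothelial cells (ECs) of mice in which beta-catenin was stabilized in ECs, set against the same cells from WT mice. It rested on 4 libraries of the 52 samples in the series, 2 per genotype, which were taken by sample title and source name. WT cells came from Tie2-GFP mice, in which a Tie2 promoter marks ECs with GFP. Stabilized cells came from Tie2-GFP; Pdgfb-CreER; BcatEx3fl mice, in which an EC-directed, tamoxifen-activated Cre removes exon 3 of Ctnnb1, and these mice received 100 ug of 4-hydroxytamoxifen at postnatal day 10. The WT mice carried no Cre and no floxed Ctnnb1, so genotype, Cre and, as far as the sources used here say, drug treatment cannot be told apart. All donors were males between postnatal days 30 and 90, and each library pooled 20 to 30 mice, so p-values measure the spread between pools. The authors give the floxed Ctnnb1 allele as heterozygous, so recombined ECs keep an intact allele. Recombination by Pdgfb-CreER is mosaic, so the stabilized libraries can hold unrecombined ECs. The tissue field of stabilized replicate 2 names the posterior pituitary, whereas its title and source name give the anterior lobe. Its anterior endocrine markers summed to 4277 TPM, beside 4887 TPM in stabilized replicate 1, 350 and 814 TPM in the stabilized and 3472 and 490 TPM in the WT posterior EC libraries. Its pituicyte and posterior lobe markers summed to 90.9 TPM, beside 247 TPM in stabilized replicate 1 and 20.5 and 34.7 TPM in the stabilized posterior libraries. In WT ECs these markers summed to 283 and 332 TPM in the anterior and 155 and 117 TPM in the posterior lobe. The list was thus higher in anterior than in posterior ECs of both genotypes, so it does not mark the posterior lobe here. Values without stabilized replicate 2 are stated below.

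Beta-catenin is the transcriptional partner of the TCF/LEF factors in canonical Wnt signaling. Without a Wnt signal it is phosphorylated within exon 3, by a complex built on Axin and APC, and then destroyed; loss of exon 3 spares it. In brain capillaries this pathway maintains the blood-brain barrier (BBB), with sealed junctions and selective transporters, whereas anterior pituitary capillaries are fenestrated and let hormones pass. The comparison asks which transcripts change when the pathway is switched on in such leaky vessels.

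The open chromatin regions of the same cell types give the sequences on which the TCF/LEF comparison below turns. The following windows of 201 bp of the GRCm38 genome, plus strand, are centered on ATAC-seq peak summits that were present in both stabilized and in neither WT anterior pituitary EC library, and also present in both WT cerebellum EC libraries. They lie near genes that rose in stabilized cells and are 4 of 9 such windows that hold at least 2 copies of TTCAAAG or ATCAAAG, the core letters of TCF/LEF binding sites, read on either strand. These 4 have the highest fold enrichment of the 9 in stabilized replicate 1, and the others lie near Gpcpd1, Nkd1, Notum and Slco1a4. Capitals mark the matches, which appear as CTTTGAA or CTTTGAT where the motif is on the minus strand.
Tnfrsf19 window, chr14:61012486-61012686: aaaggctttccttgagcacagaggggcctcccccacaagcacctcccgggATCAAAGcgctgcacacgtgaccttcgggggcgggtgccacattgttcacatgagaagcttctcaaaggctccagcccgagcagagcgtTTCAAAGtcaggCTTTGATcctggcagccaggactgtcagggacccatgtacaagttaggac
Mfsd2a window, chr4:122914349-122914549: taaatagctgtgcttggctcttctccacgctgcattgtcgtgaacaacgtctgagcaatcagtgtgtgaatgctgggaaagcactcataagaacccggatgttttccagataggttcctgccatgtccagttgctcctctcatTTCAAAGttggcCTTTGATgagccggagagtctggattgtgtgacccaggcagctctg
Slc2a1 window, chr4:119044353-119044553: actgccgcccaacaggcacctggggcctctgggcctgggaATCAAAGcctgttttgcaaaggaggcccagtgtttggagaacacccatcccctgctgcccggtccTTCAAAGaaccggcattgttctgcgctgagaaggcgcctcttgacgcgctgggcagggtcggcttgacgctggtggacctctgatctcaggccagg
Spock2 window, chr10:60101765-60101965: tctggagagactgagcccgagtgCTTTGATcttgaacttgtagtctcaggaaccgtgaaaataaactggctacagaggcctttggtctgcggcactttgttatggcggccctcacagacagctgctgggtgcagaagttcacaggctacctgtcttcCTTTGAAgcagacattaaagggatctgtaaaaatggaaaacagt
The Tnfrsf19 window lies inside the gene, 33.9 kb from its start, and holds 3 matches. The other windows hold 2 matches each and lie 46.7 kb downstream of the Mfsd2a start, 64.3 kb upstream of Slc2a1 and 4.35 kb upstream of Spock2. A match describes the letters and does not show a bound site.

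The libraries held between 23255707 and 31499646 estimated reads assigned to genes, with both stabilized libraries below both WT libraries. Even so, more genes had at least 1 read in stabilized cells, 18858 and 18884 against 15838 and 15908 in WT. The same order was seen in GFP-negative cells of the same lobe, with 20110 and 19669 against 17043 and 17352. There were 679 genes with 0 reads in both WT EC libraries and at least 10 in both stabilized ones, against 40 the other way round, and in GFP-negative cells these numbers were 548 and 51. The part of this difference in single-gene results was not tested. Pearson correlation of log expression between replicates, across genes, was 0.826 for WT and 0.897 for stabilized cells.

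Of 17915 genes tested by edgeR's quasi-likelihood test with Benjamini-Hochberg adjustment, 79 were higher and 3 lower in stabilized ECs at an adjusted p under 0.05 and at least 2-fold, which is 0.441% and 0.0167% of the genes tested (0.458% in all). At an unadjusted p under 0.05 there were 1252 genes, 954 of them higher. The genes that rose include Wnt pathway genes, BBB transporters, matrix genes, markers of other vessel types and a large set of leukocyte genes. Of the 79, 29 had 0 reads in both WT libraries. The fold for these is a lower bound against a floor of 3 reads over the WT group, between 5.04 and 7216 with a median of 208. It covers counting error only, and a ribosomal protein gene was also at 0 in WT. So it does not bound the change in expression itself. A further 13 had 1 to 3 WT reads, and the 37 with more rose by 2.66-fold to 1088-fold with a median of 11.7-fold. TPM (a level scaled per transcript length and within a library) did not overlap between genotypes for 81 of the 82 called genes, beside 40.4% of all genes tested. The number higher was 104 without WT replicate 1, 92 without WT replicate 2, 216 without stabilized replicate 1 and 167 without stabilized replicate 2, and the number lower was 10, 5, 39 and 34. Of the 79, 60, 60, 79 and 75 were still called in those fits, and 56 in each of them.

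**Figure D1:**
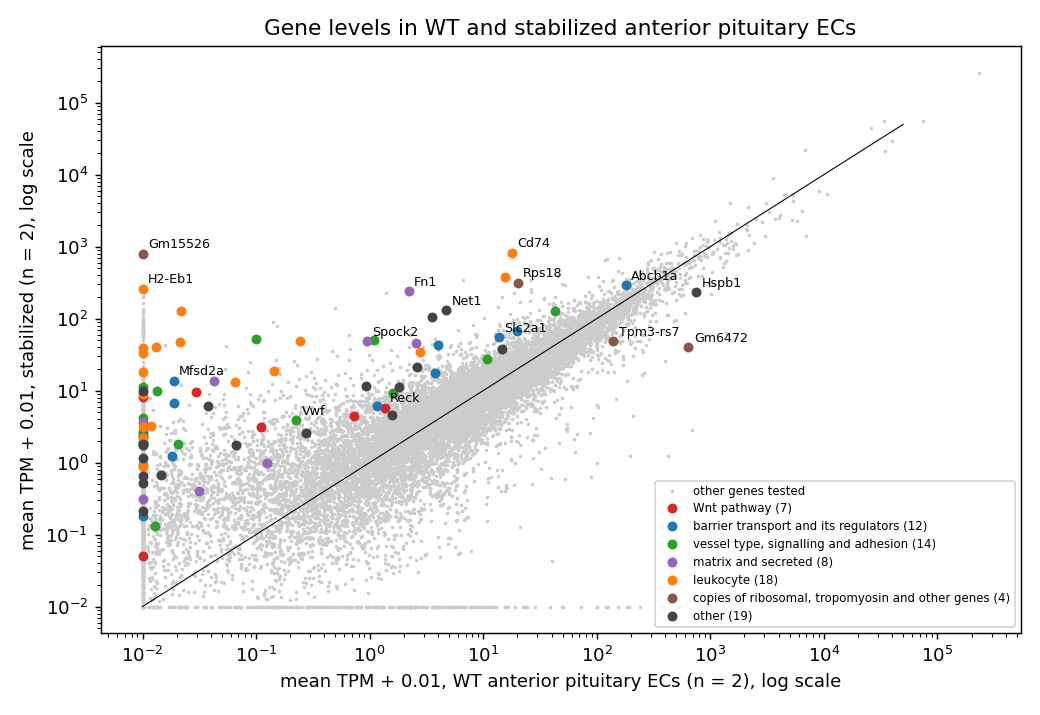
Mean TPM plus 0.01 of each gene tested in WT (x axis) and stabilized (y axis) anterior pituitary ECs, 2 libraries each, both axes on a log scale. Grey points are genes that were not called, colored points are the 82 called genes by group, and the line marks equal levels; 79 called genes lie above it, many at the left edge where both WT libraries are at 0.

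The called genes were sorted by known role after their values were seen, so the groups are for description only. Ctnnb1 itself, the target of the allele, was at 464 and 418 TPM in WT and 865 and 798 TPM in stabilized cells, while its estimated reads, 27916 and 25907 against 22636 and 24224, gave a log2 fold change of 0.15 ± 0.30 (SE, adjusted p = 1). The gene total does not show whether exon 3 was removed. Salmon gave the 15-exon coding transcript Ctnnb1-214, which holds exon 3, 9641 and 11277 reads in WT and 0 and 93.5 reads in stabilized cells. Another 15-exon coding transcript, Ctnnb1-201, had 0 and 427 reads in WT and 172 and 52.9 reads in stabilized cells. The shorter Ctnnb1-207 had 644 and 0 reads in WT and 1963 and 1955 reads in stabilized cells. Most reads went to the single-exon Ctnnb1-215, a retained intron, with 16113 and 12539 against 12294 and 11183. An intact allele remains in recombined ECs, and reads differed between transcripts in both directions. So the assigned reads do not settle whether exon 3 was lost. The reads of shorter transcripts such as Ctnnb1-211 were 0 and 1511 in WT against 2832 and 5387 in stabilized cells. These are assignments among annotated transcripts, none of which is the exon-deleted mRNA.

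Wnt pathway genes made up 7 of the 82. Tnfrsf19, a TNF receptor family member and Wnt target, was at 0 TPM in both WT libraries and at 3.48 and 12.9 TPM in stabilized cells, at least 845-fold higher (adjusted p = 0.000106). Nkd1, a feedback inhibitor that binds Dishevelled, was at 0.0393 and 0 TPM in WT and at 6.76 and 12.6 TPM in stabilized cells, a ratio of reads of 961 (95% counting interval 266 to 7943, adjusted p = 0.000864). Notum, a secreted enzyme that inactivates Wnt ligands, went from 0 and 0 TPM to 2.36 and 2.35 TPM, at least 80.2-fold (adjusted p = 0.00272). All 3 encode targets or feedback inhibitors and had few or no reads in WT cells. A 0 need not mean silence, since the ribosomal protein gene Rpl27 was also at 0 TPM in both WT libraries.

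Tcf7, a TCF/LEF factor, was at 0 and 0.203 TPM in WT and at 2.65 and 3.54 TPM in stabilized cells, a log2 fold change of 5.55 ± 1.04 (SE, adjusted p = 0.0377). This call was lost with the gene length offset, with only the 4 anterior pituitary libraries and with either limma fit. Reck, the membrane protein that presents Wnt7 to its receptor in brain ECs, was at 1.36 and 1.32 TPM against 5.68 and 5.92 TPM (2.05 ± 0.29, adjusted p = 0.00582). Fzd6, a Wnt receptor, was at 0.647 and 0.797 TPM against 2.08 and 6.78 TPM (2.31 ± 0.43, adjusted p = 0.038). The ligand gene Wnt5a stayed very low, at 0 and 0 TPM against 0.0286 and 0.0521 TPM, at least 5.04-fold higher (adjusted p = 0.0318). The calls of Fzd6 and Wnt5a were lost without WT replicate 1, without WT replicate 2 and without stabilized replicate 2, while the other 5 held in each such fit.

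Axin2 and Lef1, which are well-known TCF/LEF targets, did not pass the test. Axin2, a scaffold of the destruction complex, was at 3.10 and 0.0474 TPM in WT and at 8.97 and 29.6 TPM in stabilized cells, a log2 difference of 3.12 ± 1.02 (SE, adjusted p = 0.404). Lef1 was at 0 and 4.27 TPM against 10.8 and 27.3 TPM (4.20 ± 1.22, adjusted p = 0.276). For both genes the groups do not overlap, and it is the WT libraries that lie far apart. Axin2 was called without WT replicate 1, Lef1 without WT replicate 2, and both without either stabilized library. The log2 difference of Axin2 was 8.02 without WT replicate 1 and 2.17 without WT replicate 2, and that of Lef1 was 3.21 and 13.3. These sizes thus depend on which WT library is kept. Apcdd1, a Wnt inhibitor present in WT cells, was at 23.2 and 32.7 TPM against 33.6 and 49.8 TPM (0.86 ± 0.29, adjusted p = 0.46). Of 26 listed Wnt feedback and direct target genes, 23 were tested, 4 were called higher and none lower, 11 had an unadjusted p under 0.05, and the median log2 fold change was 2.32 (2.25 with genes at 0 in WT set at their bound) beside 0.06 over all genes. The median was 3.59 without WT replicate 2, and 0.55 and 1.32 with limma on log2(TPM + 1) and on log2(TPM + 0.1). Beta-catenin, the TCF/LEF factors and the destruction complex had 1 gene higher of 20, with a median of 0.06 (0.01 and 0.15 without WT replicate 1 and without WT replicate 2). The brain EC Wnt receptors had 2 higher of 8, Reck and Fzd6, with a median of 0.18, and of 0.33 to 0.46 with any 1 of the 4 libraries left out. Of these 8 genes and of the 20 before them, 0 were called with a gene length offset, with only the 4 anterior pituitary libraries or with limma.

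Barrier transport and its regulators held 12 genes. Mfsd2a, the lysophosphatidylcholine carrier that restrains transcytosis at the BBB, was at 0 and 0.0176 TPM in WT and at 12.0 and 15.5 TPM in stabilized cells, a ratio of reads of 1127 (95% counting interval 202 to 44555, adjusted p = 2.25e-05). Slc35f2, a nucleoside-like substrate carrier that is also on the Wnt target list, was at 0 and 0.0176 TPM against 5.32 and 8 TPM (ratio 1375, 246 to 54362, adjusted p = 1.25e-05). Slco1c1, which carries thyroid hormone, was at 0 and 0.0162 TPM against 1.14 and 1.3 TPM (ratio 214, 37.9 to 8512, adjusted p = 2.68e-05). These 3 carriers had few or no reads in WT.

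Other carriers were already present in WT cells. Slco1a4, an organic anion carrier, was at 7.12 and 0.859 TPM in WT and at 16.4 and 70.9 TPM in stabilized cells (log2 4.39 ± 0.49 SE, adjusted p = 0.000932). Slc2a1, the glucose carrier GLUT1, was at 10.8 and 16.7 TPM against 34.7 and 76.5 TPM (1.88 ± 0.33, adjusted p = 0.0285), a call that was lost without WT replicate 2. The zinc and metal carriers Slc39a8 (0.888 and 1.41 against 5.06 and 7.30 TPM, adjusted p = 0.00429) and Slc39a10 (28.4 and 11.4 against 58.1 and 76.4 TPM, adjusted p = 0.00582) rose by 2.37 ± 0.32 and 2.09 ± 0.29 on the log2 scale. The groups do not overlap for any of these 4, although the stabilized libraries of Slco1a4 and of Slc2a1 differ from each other more than 2-fold.

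Abcb1a, the efflux pump P-glycoprotein, rose in reads, from 3646 and 5600 to 11394 and 18969 (2.08 ± 0.35, adjusted p = 0.0211), but its TPM, 186 and 173 against 146 and 438, overlapped, and it was not called without WT replicate 1. Flvcr2 (0 and 0 against 1.05 and 2.83 TPM), a choline carrier, and the riboflavin carrier Slc52a3 (0 and 0 against 1.32 and 4.05 TPM) were at least 163-fold and 208-fold higher, with adjusted p of 0.00599 and 0.0158. Foxq1, a forkhead factor of brain ECs, had 0 and 0 against 0.243 and 0.105 TPM, at least 24.8-fold (adjusted p = 0.0373), and Lrp1, an endocytic receptor, had 3.18 and 4.34 against 24.3 and 10.8 TPM (2.48 ± 0.42, adjusted p = 0.0211). Neither Foxq1 nor Lrp1 was called when WT replicate 1 or WT replicate 2 was left out. Of 24 listed BBB solute carriers tested, 7 were higher and none lower, 20 had a positive log2 fold change and the median was 1.21 (0.89 with genes at 0 in WT at their bound). The carrier median was 0.66 without stabilized replicate 2, 0.62 with a gene length offset and 0.56 and 0.65 with limma, and calls numbered 11 without stabilized replicate 1, 4 with the length offset, and 1 with only the 4 anterior pituitary libraries or with limma on log2(TPM + 1). The efflux pumps and receptors had 2 higher of 14, with a median of 0.59 (0.99 without WT replicate 1). Of these 14, 1 was called without either WT replicate 1 or WT replicate 2, and 0 with the length offset or limma.

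Mfsd2a, Slc35f2 and Slc2a1 were higher in WT cerebellum ECs, which form a barrier, than in stabilized anterior pituitary ECs. Mfsd2a was at 164 and 364 TPM there, and Slc35f2 at 81.8 and 56.4 TPM. Slc2a1 was at 1579 and 1625 TPM in WT cerebellum ECs. These levels are set side by side on the TPM scale without a test.

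Junction and fenestral genes did not pass the test. The claudin of BBB tight junctions, Cldn5, was at 23.4 and 21.9 TPM in WT and at 54.8 and 124 TPM in stabilized cells, a log2 difference of 1.82 ± 0.45 (SE, adjusted p = 0.151; 0.00136 by DESeq2). The groups of Cldn5 do not overlap, and edgeR called it only without stabilized replicate 1 among the fits with a library left out (adjusted p = 5.09e-05). Of 18 tight junction genes 0 were called by edgeR, 1 by DESeq2, 1 to 3 by edgeR with a library left out, and 4 had an unadjusted p under 0.05. The median of this list was 0.29, -0.06 without WT replicate 1 and 0.08 without stabilized replicate 2. Plvap, which forms the diaphragm of fenestrae, was at 845 and 1028 TPM against 1326 and 1145 TPM (0.07 ± 1.39, adjusted p = 1), and among 13 genes of fenestrae and caveolae edgeR called 0, DESeq2 1, and 1 had an unadjusted p under 0.05. The wide error of Plvap means that a fall of about its own SE could not have been detected.

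The EC identity genes did not pass the test either. Pecam1 was at 247 and 249 TPM in WT and 461 and 332 TPM in stabilized cells, Cdh5 at 225 and 311 against 287 and 233 TPM, and Kdr at 347 and 372 against 445 and 247 TPM, each with an adjusted p of 1. Pecam1 and Cdh5 are junction proteins of all ECs and Kdr is the main VEGF receptor. Vwf was the single gene called among 18 pan-endothelial genes.

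Genes of vessel type, signaling and adhesion numbered 14. Car4, a carbonic anhydrase of capillaries, was at 0 and 0.179 TPM in WT and at 50.1 and 55.7 TPM in stabilized cells (ratio 707, 241 to 3430, adjusted p = 2.73e-05). Cd36, a fatty acid receptor of capillaries, was at 0 and 0 against 12.7 and 10.0 TPM, at least 407-fold (adjusted p = 0.00238). Vwf, the clotting factor carrier of larger vessels, was at 0.296 and 0.137 against 2.08 and 5.70 TPM (6.51 ± 0.56, adjusted p = 8.48e-05). For these genes both stabilized libraries lie well above both WT libraries. The Vwf call was lost with the gene length offset and with either limma fit, and that of Cd36 with the offset. Car4 and Cd36 were the 2 called of 14 capillary lipid uptake genes tested, with 8 positive and a median log2 fold change of 0.13. That median was -0.28 with the gene length offset, and -0.18 and -0.28 with limma on log2(TPM + 1) and on log2(TPM + 0.1).

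Arterial genes included Gja5, a gap junction connexin, at 0 and 0 against 0.72 and 1.13 TPM (at least 113-fold, adjusted p = 0.00404), Bmx, a kinase, at 0 and 0 against 1.81 and 1.72 TPM (at least 123-fold, adjusted p = 0.0323), and the chemokine gene Cxcl12 at 0.389 and 2.83 against 9.27 and 9.41 TPM (2.87 ± 0.56, adjusted p = 0.0498). The arterial and Notch list had 3 higher of 21 tested, with 17 positive and a median of 0.67 (0.27 at the bounds). The arterial median was 1.26 without WT replicate 1 and 0.40 without WT replicate 2, and 0 were called with a gene length offset, with only the 4 anterior pituitary libraries or with limma. The adhesion gene Vcam1, which binds leukocytes, was at 0 and 0.00657 against 4.83 and 14.7 TPM (ratio 2347, 421 to 92744, adjusted p = 1.25e-05). Vcam1 was the only gene called of 14 venous and leukocyte adhesion genes tested, with 9 positive and a median of 0.40 (0.08 without stabilized replicate 2). Prom1, a membrane glycoprotein of brain ECs, was at 0.124 and 2.06 against 30.4 and 69.5 TPM (6.52 ± 0.83, adjusted p = 0.00276). The stem cell factor gene Kitl was at 6.05 and 15.7 against 21.7 and 33.2 TPM (1.92 ± 0.30, adjusted p = 0.0126), and Rgs5, a regulator of G protein signaling that is also a mural cell marker, was at 41.2 and 45.2 against 147 and 104 TPM (1.41 ± 0.25, adjusted p = 0.0257). Bmx and Rgs5 were not called without either WT library and Kitl was not called without WT replicate 2. The calls of Bmx, Rgs5 and Kitl were also lost with the gene length offset and with either limma fit. With only the 4 anterior pituitary libraries, those of Bmx and Kitl were lost. The summed mural markers were at 192 and 226 TPM in WT and 263 and 184 TPM in stabilized cells, so the groups of the mural list overlap. In GFP-negative cells they were at 35.6 and 28.6 TPM in WT and 105 and 68.4 TPM in stabilized mice, without overlap.

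Matrix and secreted genes numbered 8. Fn1, fibronectin, was at 3.34 and 1.05 TPM in WT and at 199 and 281 TPM in stabilized cells, a 139-fold rise (log2 7.12 ± 0.48 SE, adjusted p = 1.47e-05). Spock2, a secreted proteoglycan of brain ECs, was at 1.24 and 0.623 against 26.5 and 71.1 TPM (6.05 ± 0.52, adjusted p = 8.48e-05). Col18a1, a basement membrane collagen, was at 0.0523 and 0.0126 against 8.86 and 18.4 TPM (10.09 ± 0.90, adjusted p = 0.000106). In each case both stabilized libraries lie far above both WT libraries. Ptn, a heparin-binding growth factor, was at 3.88 and 1.26 against 45.1 and 46.7 TPM (3.73 ± 0.66, adjusted p = 0.0285), and Col14a1, a fibril-associated collagen, was at 0 and 0 against 2.58 and 4.62 TPM, at least 635-fold. The elastic fiber genes Fbn1 (0.931 and 1 TPM in stabilized cells) and Fbln2 (0.321 and 0.459 TPM) and the secreted Scube2 (0.247 and 0.357 TPM) stayed low, and Fbn1 was not called without WT replicate 1. Of 26 listed basement membrane and matrix genes 3 were higher, 20 were positive and the median was 0.61.

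**Figure D2:**
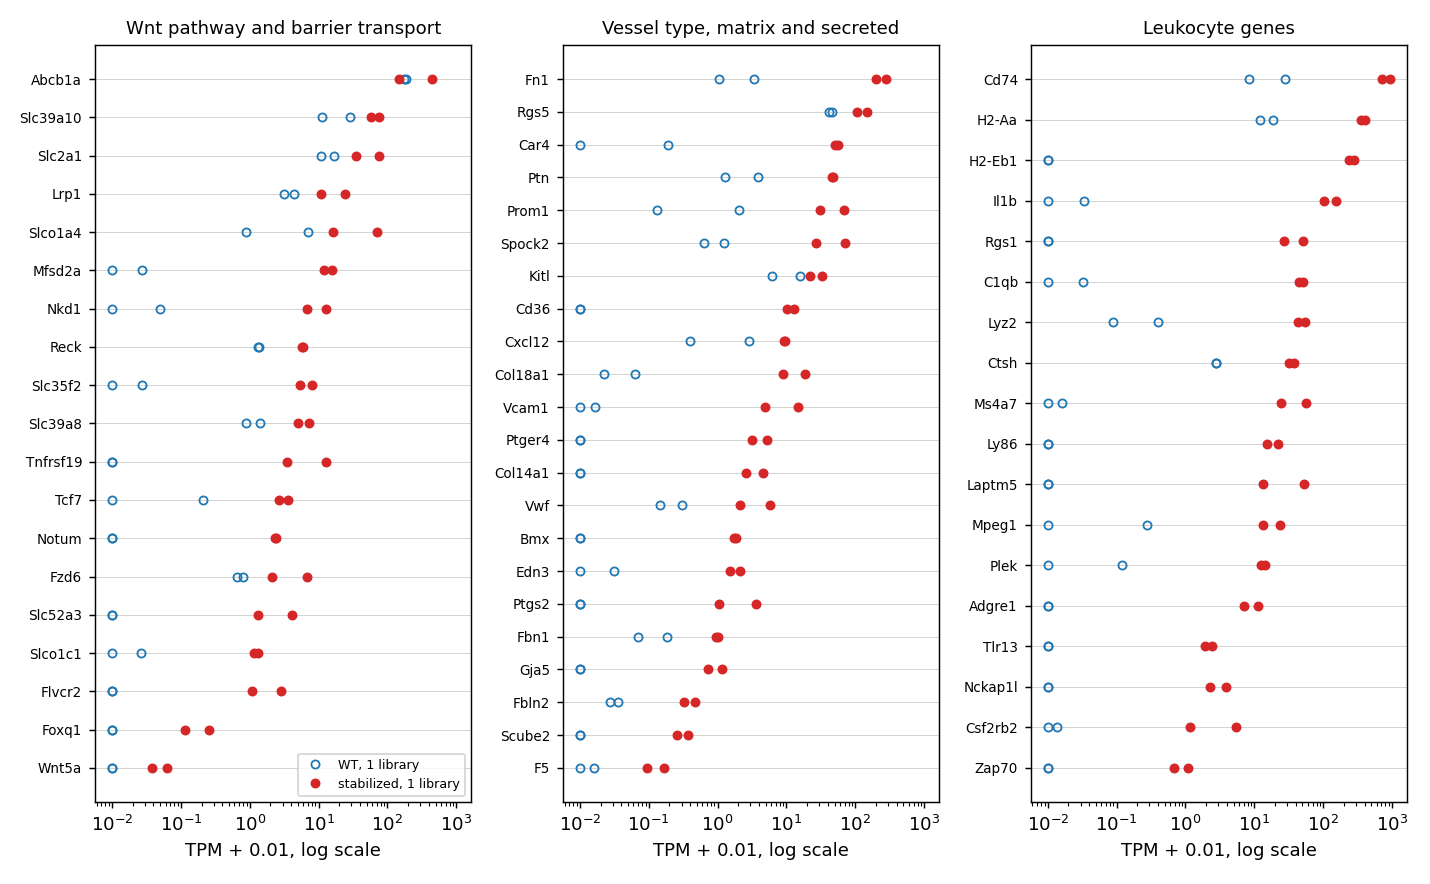
TPM plus 0.01 (log scale) of the called genes of the Wnt pathway and barrier transport (left), vessel type, matrix and secreted genes (middle) and leukocyte genes (right), with 1 open circle per WT library and 1 filled circle per stabilized library. Stabilized libraries lie above both WT libraries for each gene but Abcb1a, and circles at the left edge are libraries at 0 TPM.

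Leukocyte genes formed the largest group with a shared role, with 18 genes. H2-Eb1, an MHC class II gene, was at 0 and 0 TPM in WT and at 281 and 237 TPM in stabilized cells, at least 7216-fold by counting error alone (adjusted p = 0.00235). The other class II genes named next were above 0 in both WT libraries, so this 0 need not mean silence. H2-Aa, another class II gene, was at 18.8 and 12.2 against 398 and 354 TPM (4.62 ± 0.51, adjusted p = 0.000864), and Cd74, the class II chaperone, was at 27.4 and 8.33 against 935 and 718 TPM (5.62 ± 0.69, adjusted p = 0.00227). The class II gene H2-Ab1, chosen after its values were seen, did not pass, at 14.3 and 23.3 against 275 and 178 TPM (3.53 ± 1.18, adjusted p = 0.435). Macrophage genes included C1qb, a complement subunit, at 0.023 and 0 against 44.3 and 51.3 TPM (ratio 3916, 702 to 154724, adjusted p = 0.0211), the lysozyme gene Lyz2 at 0.392 and 0.0797 against 42.9 and 53.9 TPM (7.66 ± 0.89, adjusted p = 0.00142), and Adgre1, the F4/80 antigen, at 0 and 0 against 6.97 and 11.2 TPM (at least 1018-fold, adjusted p = 0.0336). The cytokine gene Il1b was at 0 and 0.0239 against 104 and 155 TPM (ratio 11307, 2029 to 446649, adjusted p = 2.68e-05).

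The summed TPM of 13 macrophage and microglia markers was 30.8 and 22.9 in WT ECs and 268 and 385 in stabilized ECs. Of these markers 3 were called, C1qb, Lyz2 and Adgre1. Csf1r, the receptor for macrophage growth factors, was at 0.302 and 0.00573 against 12.8 and 21.7 TPM (adjusted p = 0.0713), and C1qa was at 0.263 and 0.0245 against 58.2 and 97.8 TPM (adjusted p = 0.0926). Mrc1 (17.5 and 17.6 against 21.8 and 16 TPM) and Cd68 (7.86 and 3.51 against 6.93 and 7.26 TPM) had overlapping groups. In GFP-negative cells the list was at 77 and 69.8 TPM in WT and 178 and 69.6 TPM in stabilized mice, and of the defining markers only Adgre1 was at 0 in both WT EC libraries. The part of these cells in the leukocyte genes was not tested. In sorted bulk RNA a change in the share of a cell type cannot be told apart from a change in RNA per cell.

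The endothelial marker sum was 3602 and 5397 TPM in WT and 4116 and 3352 TPM in stabilized ECs, against 9.22 to 34.2 TPM in GFP-negative cells. Endocrine markers summed to 7240 and 4709 against 4887 and 4277 TPM in the sorted ECs and to 35955 to 67032 TPM in GFP-negative cells, and in the sorted ECs this sum was below the endothelial sum only in WT replicate 2. Fibroblast markers stood at 31.9 and 48.4 against 54.6 and 34.4 TPM. Lymphocyte markers summed to at most 5.51 TPM in the sorted ECs, and in GFP-negative cells to 1.56 and 6.56 TPM in WT against 38.2 and 13.4 TPM. Erythrocyte and platelet markers summed to 2239 and 1353 against 1436 and 695 TPM in the sorted ECs. In GFP-negative cells they summed to 815 and 1169 TPM in WT against 11645.5 and 4841 TPM. Of the 82 called genes, 48 were lower and 5 higher in WT ECs than in WT GFP-negative cells, where 5.87% and 5.46% of genes tested were. The calls used the same WT EC libraries, and low values there favor the lower side, so nothing is read from these shares.

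**Figure D3:**
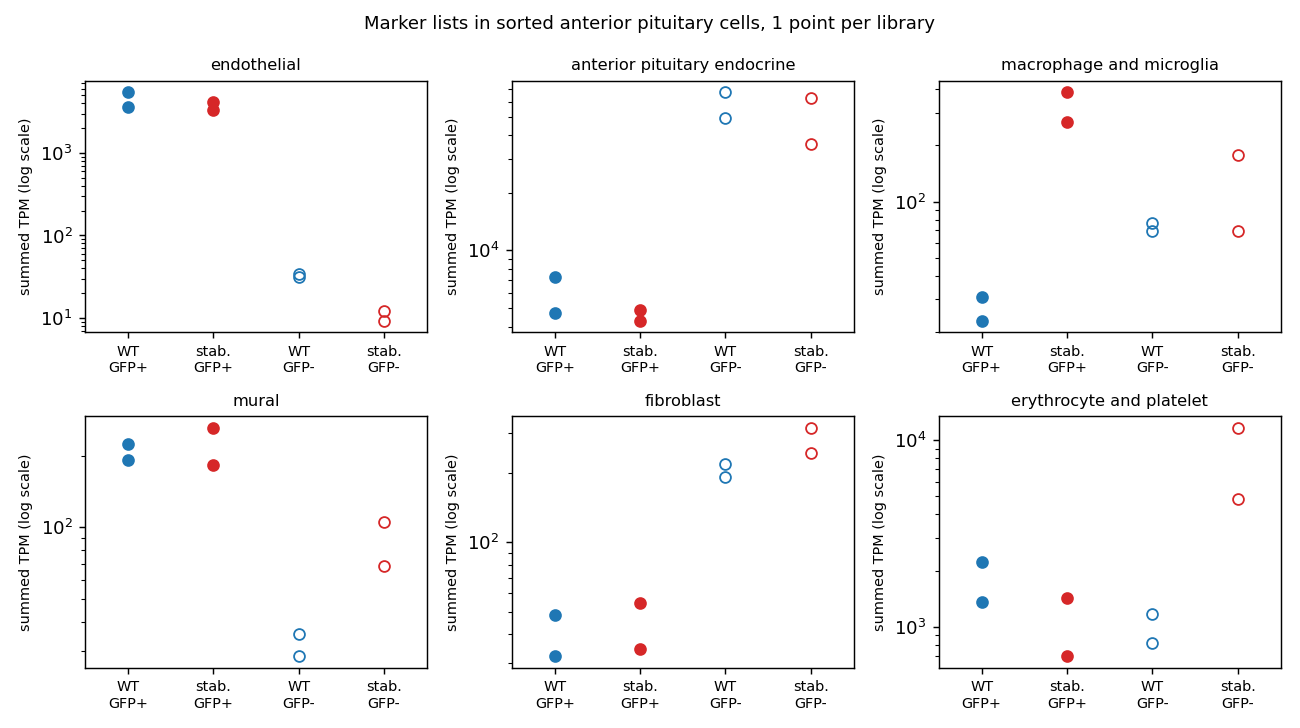
Summed TPM of marker lists (log scale, range set for each panel) in the 4 GFP-positive and 4 GFP-negative anterior pituitary libraries, 1 point per library, WT in blue and stabilized in red. The macrophage list is at 268 and 385 TPM in stabilized ECs and at 30.8 and 22.9 TPM in WT ECs, whereas the endothelial, mural and fibroblast lists overlap between genotypes in ECs.

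Copies of abundant genes formed a small group in which the assignment of reads is uncertain. Rps18, a ribosomal protein gene with many near-identical copies, was at 19.3 and 21 TPM in WT and at 317 and 311 TPM in stabilized cells (adjusted p = 0.00356), and in GFP-negative cells at 12.6 and 1.06 against 228 and 389 TPM. The pseudogene Gm15526 was at 0 and 0 against 1016 and 582 TPM (at least 353-fold). Gm6472 went the other way, from 553 and 731 to 32.9 and 47.0 TPM (log2 -4.04 ± 0.75, adjusted p = 0.0352), and in GFP-negative cells from 562 and 527 to 32.4 and 84.1 TPM. Tpm3-rs7, a tropomyosin copy, fell from 121 and 158 to 54.9 and 41.8 TPM (-1.49 ± 0.27, adjusted p = 0.0342), and was not called without either WT library or without stabilized replicate 2. The small heat shock protein gene Hspb1, the remaining gene called lower, was at 852 and 646 against 292 and 173 TPM (-2.21 ± 0.37, adjusted p = 0.0211). Neither limma fit called any of these 3 lower genes, and with the gene length offset only Gm6472 was called.

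The remaining genes that rose have other roles. Myof, a membrane repair protein of the ferlin family, was at 0 and 0 TPM in WT and at 14.3 and 5.51 TPM in stabilized cells, at least 1156-fold (adjusted p = 1.25e-05). Net1, a RhoA exchange factor, was at 5.81 and 3.66 against 133 and 129 TPM (3.65 ± 0.56, adjusted p = 0.0114). Gatm, an enzyme of creatine synthesis, was at 2.49 and 2.67 against 17.5 and 25.4 TPM (adjusted p = 0.00211), and the lipid enzyme gene Degs2 was at 0 and 0 against 2.11 and 1.33 TPM (adjusted p = 0.000437). Grb14, an adaptor that restrains insulin signaling, was at 1.49 and 2.14 against 10.1 and 12.4 TPM (3.43, adjusted p = 0.0211), a call that was lost without WT replicate 1. The Grb14 call was also lost with the gene length offset, with only the 4 anterior pituitary libraries and with either limma fit. The groups of these 5 genes do not overlap.

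The same genotype contrast in posterior pituitary ECs, sorted from the other lobe of the same pituitaries, was fitted in the same model. There 224 genes were higher (1.25% of the genes tested), among them 53 of the 79, which is 67.1% of the anterior and 23.7% of the posterior list. By group, 6 of 7 Wnt pathway genes, 10 of 12 barrier genes, 16 of 18 leukocyte genes and 3 of 14 vessel type genes were higher in the posterior lobe as well. In the cerebellum 12 genes were higher (0.067%), and 2 of them were among the 79, Rps18 and Gm15526 (10 by DESeq2, which called 126 higher). Choroid plexus EC ribosomes were captured from other mice, aged 6 to 8 weeks and pooled by 3 to 4, that carried the RiboTag allele Rpl22 ribotag, a Cre-dependent tagged ribosomal protein. Both genotypes there carried Pdgfb-CreER and received 4-hydroxytamoxifen, and only the stabilized mice carried Ctnnb1 flex3, so the WT mice had Cre, unlike those of the pituitary, and the contrasts are not alike. There 110 genes were higher (0.656%), and they included 23 of the 78 genes also tested, for example Nkd1 (log2 6.31 ± 0.55 SE), Mfsd2a (5.95 ± 0.49), Spock2 (5.41 ± 0.40) and Slc35f2 (4.49 ± 0.47). Of the 17 leukocyte genes tested there, edgeR called 0, DESeq2 4 (Csf2rb2, Lyz2, Plek and Zap70), and 5 had an unadjusted p under 0.05, while edgeR called 7 of 12 barrier and 4 of 7 Wnt pathway genes. Over all genes there, DESeq2 called 366 higher, and 2326 of 16775 had an unadjusted p under 0.05 by edgeR.

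GFP-negative cells of the stabilized anterior pituitary had 7 genes higher of 19612 tested (0.0357%). Of the 78 genes also tested there, 0 were called higher by edgeR, 5 by DESeq2 (Rgs5, Tlr13, Pcdh18, H2-Eb1 and Gm15526), and 7 had an unadjusted p under 0.05 in the higher direction. Over all 19612 genes, DESeq2 called 225 higher, and 712 had an unadjusted p under 0.05 in that direction by edgeR. The MHC class II gene H2-Eb1 was at 3.05 and 1.77 TPM in WT and at 80.0 and 11.3 TPM in stabilized GFP-negative cells.

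**Figure D4:**
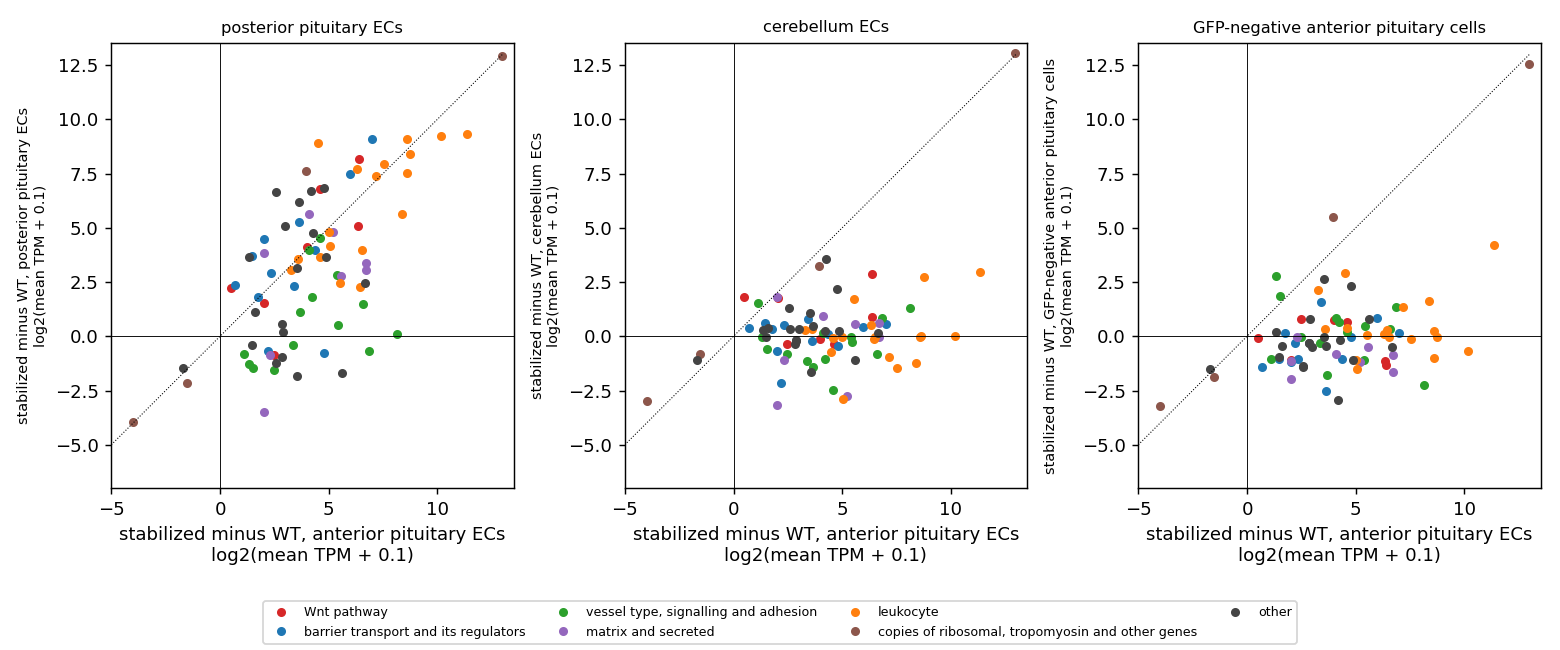
Difference of log2(mean TPM + 0.1), stabilized minus WT, for the 82 called genes in anterior pituitary ECs (x axis) against posterior pituitary ECs, cerebellum ECs and GFP-negative anterior pituitary cells (y axes), each a mean of 2 libraries; dotted lines mark equal differences. Leukocyte genes (orange) lie high on both axes in the posterior lobe and mostly below the dotted line in cerebellum and GFP-negative cells.

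Tests of the difference in response between lobes called 13 genes with a larger and 10 with a smaller response in anterior ECs (0.0726% and 0.0558%). Here and below, larger and smaller compare signed log2 changes. A gene that fell only in the other cells thus also counts as larger in anterior ECs. Cd36 was at 24 and 31.7 TPM in WT and 14.2 and 20.1 TPM in stabilized posterior ECs, so its rise from 0 in the anterior lobe differed (adjusted p = 0.0135). Car4, at 256 and 86.4 against 200 and 168 TPM in the posterior lobe, also differed (adjusted p = 0.00186). Of all 82 called genes 11 had a larger response in the anterior lobe, 6 of them in the vessel type group; these genes were chosen for their change in the same anterior libraries, so nothing is read from these counts. In the other direction, Slc2a1 rose from 21.1 and 24.8 to 511 and 511 TPM in posterior ECs, a difference of -3.91 ± 0.47 on the log2 scale (SE, adjusted p = 0.00494), and Apcdd1 from 11.8 and 19.0 to 68.7 and 81.8 TPM (-2.84 ± 0.42, adjusted p = 0.0182). The differences of Cd36, Slc2a1 and Apcdd1 kept their direction but were not called with the gene length offset or with either limma fit. Of the 18 leukocyte genes edgeR called 0 in this test, DESeq2 2 (Laptm5, Plek), and 6 had an unadjusted p under 0.05. Over all genes, DESeq2 called 240 larger and 204 smaller, and 1628 of 17915 had an unadjusted p under 0.05 by edgeR. Between anterior pituitary and cerebellum, 91 genes had a larger and 2 a smaller response in anterior ECs (0.508% and 0.0112%), and 39 of the 79 were among the 91. Since the 79 were chosen for their rise in the same anterior libraries, nothing is read from this overlap. The stabilized cerebellum libraries detected 14085 and 13032 genes against 15644 and 16904 in WT, the reverse of the order in the pituitary.

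ATAC-seq of anterior pituitary ECs, which marks open chromatin, gave 36860 and 45040 peaks for WT, then 40071 and 42621 for stabilized libraries after weak peaks were dropped (enrichment of 2-fold or less, or a -log10 q of 2 or less). Of 36877 peaks shared by both stabilized libraries, 2828 were gained, meaning in neither WT library. Peaks shared by both WT libraries and in neither stabilized one, called lost, numbered 2014. A gained peak lay within 100 kb of 53 of the 79 genes that rose (67.1%, 95% exact binomial interval 55.6 to 77.3), beside 31.3% of all genes tested. The genes that rose were longer, with a median of 45017 bp against 18363 bp. A lost peak lay within the same distance of 20.3% against 22.9%. Within 25 kb the gained share was 50.6% against 14.2%.

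TTCAAAG or ATCAAAG stood within 100 bp of the summit in 21.6% of gained peaks (20.1 to 23.2), in 5.20% of the other stabilized peaks and in 6.46% of all. The median GC content of gained windows was 49.8% against 56.2%. Among genes, 18 of 79 (22.8%) had a gained peak with the motif, against 7.57% of all tested. Among the gained peaks near these 79 genes, 25 of 118 (21.2%) held the motif, close to the 21.6% of all gained peaks. Among the 22 gained peaks near Wnt pathway genes 10 held the motif and 11 were present in both WT cerebellum EC libraries, and near the barrier genes 6 and 14 of 27 were. The 19 gained peaks near leukocyte genes held the motif in 0, which allows a share of up to 15.8%, and were present in cerebellum in 1. The motif stood in 1 of 12 gained peaks near vessel type genes, 4 of 10 near matrix genes and 4 of 26 near other genes. Gained peaks in general were present in both WT cerebellum libraries in 20.2% of cases, and the other peaks in 50.2%. No test was made of these shares, since peaks of 1 gene share a neighborhood.

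**Figure D5:**
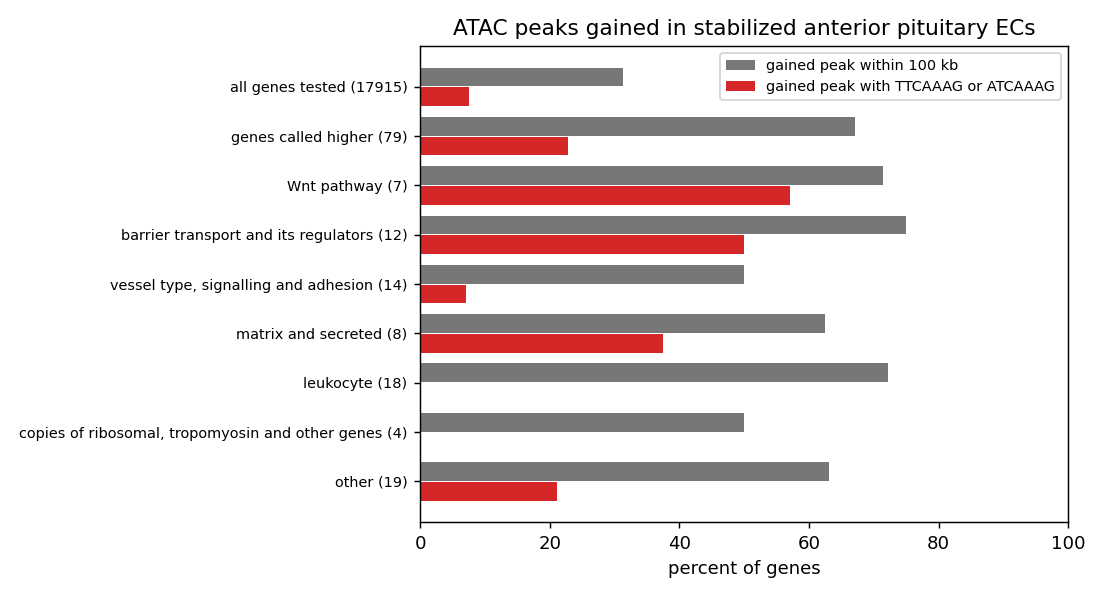
Percent of genes (x axis, from 0) with a gained ATAC-seq peak within 100 kb of the gene body (grey) and with a gained peak holding TTCAAAG or ATCAAAG within 100 bp of its summit (red), for all genes tested, the genes called higher and the called genes of each group, with gene numbers in parentheses. Leukocyte genes have gained peaks but none with the motif, whereas 4 of 7 Wnt pathway and 6 of 12 barrier genes have one. So do 3 of 8 matrix, 4 of 19 other and 1 of 14 vessel type genes.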

How the data were processed

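The authors sequenced amplified RNA of FACS-sorted cells (75 cycles, single-end) and deposited, per transcript, Salmon 0.10.2 estimated counts and TPM values (Ensembl release 92, mm10), with sequence, GC and position bias corrections. For ATAC-seq the authors deposited MACS2 2.1.1.20160309 peaks called in each library alone after Bowtie2 2.3.2 alignment, with a fold enrichment ratio and a -log10 q per peak. Estimated counts were summed per gene with GENCODE M21 and rounded. edgeR 4.0.16 (TMM, filterByExpr, quasi-likelihood test, Benjamini-Hochberg) was fitted to the 12 GFP-positive libraries, 1 coefficient per group, and separately to the 12 GFP-negative and 8 ribosome-bound libraries and to all 24 sorted libraries. Genes were called at adjusted p under 0.05 and at least 2-fold. Genes named by rule were called genes with the largest change that reach 10 TPM, called members of 24 lists and a few context genes. Further genes, such as Wnt5a, Degs2 and Net1, were named outside this rule. The members and lists were chosen with earlier results of these data known. Peaks were kept at fold enrichment over 2 and -log10 q over 2, with 1 bp of overlap counted as shared. On simulated data the main fit missed most of the changes put in, so a gene that was not called can still differ. DESeq2 1.42.0 and limma 3.58.1 were alternatives, along with normalization, filter, replicate block, length offset, the 4 anterior pituitary libraries alone, left-out libraries, peak threshold, overlap and distance. Intervals and floors cover counting error only. In the report, genotype fold changes of called genes with 3 or fewer WT reads are given as bounds or read ratios, since the fitted values depend on the prior count.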

Additional observations from a re-analysis of the deposited data

Results flagged for a closer look

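Responses to stabilization differed between anterior and posterior pituitary ECs, by the interaction term of the edgeR fit, for 11 genes at 10 TPM or more. The anterior minus posterior log2 differences were positive for Cd36 (12.01), Car4 (8.19), Ceacam1 (2.20) and Rgs5 (2.19). They were negative for Grb14 (-6.33), Rps18 (-5.09), Mal (-4.78), Cpe (-4.07), Slc2a1 (-3.91), Apcdd1 (-2.84) and Nampt (-2.60). The Ceacam1 difference comes from the posterior lobe, with log2 changes of 0.03 in anterior and -2.17 in posterior ECs. The Cd36 and Car4 values rest on 0 and on 3 reads in WT anterior ECs, and the Grb14 value on 0 and 0.0688 TPM in WT posterior ECs, so these 3 sizes depend on the prior count and are not folds. Ceacam1, an adhesion protein, was at 25.1 and 27.9 against 31.2 and 18.4 TPM in the anterior lobe and fell from 196 and 124 to 23.8 and 18.5 TPM in the posterior lobe. Mal and Cpe rose in the posterior lobe, Mal from 15.6 and 4.64 to 327 and 339 TPM and Cpe from 80.1 and 28.5 to 543 and 514 TPM. Rgs5, a mural marker, was at 123 and 59.4 against 36.2 and 30.9 TPM in the posterior lobe. In the same posterior libraries endothelial markers summed to 8434 and 6080 TPM in WT against 2583 and 2298 TPM in stabilized cells, mural markers to 167 and 84.8 against 61.6 and 49.8 TPM, and macrophage and microglia markers to 13.1 and 0.875 against 423 and 316 TPM. Their part in these lobe differences was not tested. With the gene length offset, only the differences of Car4, Grb14, Mal, Cpe and Nampt were called. Of these 11 genes, only Car4 was called in either limma fit, and the Ceacam1 difference was lost without WT replicate 1, WT replicate 2 or stabilized replicate 1, and that of Rgs5 without WT replicate 1 (adjusted p between 0.0544 and 0.0925).

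Against the cerebellum the same test gave positive anterior minus cerebellum differences for Rpl27 (24.78), mt-Co3 (20.14), Cxcl16 (14.62), Ly86 (14.17), Laptm5 (13.58), Rps29 (12.02), Dcn (11.22), Dram1 (11.06), Plekho1 (10.37) and Piezo2 (10.10). The differences of Snx15 (-3.01) and Lepr (-2.72) were negative. For all 12 genes but Ly86, Laptm5, Snx15 and Lepr, both stabilized cerebellum libraries were at 0 TPM, and Ly86 and Laptm5 were at 0 in WT anterior ECs, so the sizes depend on the prior count. Rps29, Plekho1 and Piezo2 changed little in anterior ECs (log2 0.21, -0.32 and 0.26), so their differences come from the fall in cerebellum. Plekho1, for example, was at 81.3 and 100.3 against 79.7 and 63.0 TPM in anterior ECs. Of these 12 genes, only mt-Co3 was called with limma on log2(TPM + 1). With the gene length offset, only Rpl27, mt-Co3, Rps29 and Plekho1 were called. The Ly86 difference was not called without WT replicate 1 or without WT replicate 2, nor were those of Snx15 and Lepr without WT replicate 2. The part of the fewer genes detected in the stabilized cerebellum libraries was not tested.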

How the results depend on the processing

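All 79 genes called higher kept a positive direction in each alternative in which they were tested, and 17 of them were called in every alternative (Adgre1, C1qb, Car4, Fn1, Gatm, H2-Aa, H2-Eb1, Il1b, Lyz2, Mfsd2a, Ms4a7, Nkd1, Rgs1, Rps18, Slc35f2, Spock2 and Vcam1). The counts moved more. Genes higher and lower numbered 422 and 78 with DESeq2, 347 and 96 with no filter on low counts, 51 and 1 with a gene length offset, 52 and 30 with only the 4 anterior pituitary libraries, 160 and 19 with limma on log2(TPM + 1), and 191 and 10 with limma on log2(TPM + 0.1). They numbered 79 and 3 with RLE size factors and 107 and 10 with the replicate block. Leaving out a library gave 92 to 216 higher and 5 to 39 lower. The gene length offset kept 43 of the 79, limma 29 and 39, and the 4 libraries alone 28. Differences between replicates correlated across genes at -0.02 to 0.03 between groups. Such values cannot show whether replicates of different groups shared mice. The fits treated the lobes as independent pools, although both came from the same pituitaries.

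The difference between lobes (13 larger and 10 smaller in the anterior lobe) became 240 and 204 with DESeq2 and 221 and 187 with no filter; the larger count became 4 with the length offset, 22 with limma on log2(TPM + 1) and 6 on log2(TPM + 0.1), where the smaller count was 0. Of the 13 and 10, the length offset kept 4 and 6 and each limma fit 1 and 0. Leaving out a library gave 28 to 73 and 21 to 67. The difference from cerebellum (91 and 2) became 609 and 86 with DESeq2, 552 and 80 with no filter, 39 and 1 with the length offset, 31 and 1 with limma on log2(TPM + 1) and 24 and 0 on log2(TPM + 0.1) (3 and 11 of the 91 kept, and 0 of the 2), and 114 to 302 and 3 to 26 with a library left out. With DESeq2, 10 of the 79 were higher in cerebellum ECs and 5 of 78 in GFP-negative cells. The share of genes with a gained peak was 50.6% within 25 kb. The cause of these shifts was not tested. With 2 libraries per group, genes with few WT reads carry wide errors.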

Other observations

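The 14 immediate early genes, whose transcripts rise within minutes of a stimulus, had negative log2 fold changes without exception in anterior pituitary ECs, with a median of -1.98. Fos was at 790 and 1238 TPM in WT and at 234 and 204 TPM in stabilized cells, Jun at 416 and 573 against 131 and 58.8 TPM, and Jund at 76.6 and 74.1 against 94.0 and 76.5 TPM although its fitted change was -2.00. In the edgeR fit to the 12 GFP-positive libraries none was called, 4 were by DESeq2, 12 had an unadjusted p under 0.05, and the smallest adjusted p was 0.101. By edgeR 9 were called lower with only the 4 anterior pituitary libraries, 11 with no filter on low counts, 5 without stabilized replicate 1 and 2 without stabilized replicate 2. In posterior pituitary ECs the median was -1.40 with 0 of 14 positive and 0 called by edgeR (smallest adjusted p 0.0901). In cerebellum ECs it was -2.79 with 13 of 14 negative and 4 called lower (smallest adjusted p 0.00621). There 12 had an unadjusted p under 0.05 by edgeR, beside 1751 of all 17915 genes, 433 of these higher. In GFP-negative anterior pituitary cells the median was -0.73 with 1 positive and 0 called. Choroid plexus ribosome-bound RNA was made without cell sorting. There 13 of 13 were positive with a median of 1.33, and edgeR called 0 (smallest adjusted p 0.118).

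The 21 cell cycle genes had a median of -0.26 (-0.76 without stabilized replicate 1) with 7 positive, and 0 were called by edgeR, 0 by DESeq2, and 0 had an unadjusted p under 0.05. Of 18 MHC class I and interferon-induced genes 15 were positive with a median of 0.44 (0.23 without WT replicate 2); edgeR called 0, DESeq2 1, and 4 had an unadjusted p under 0.05. The VEGF, apelin and tip cell list had 5 positive of 18 and a median of -0.23 (-0.10 without WT replicate 1, -0.13 without WT replicate 2 and -0.65 without stabilized replicate 1), with 0 called by edgeR, 0 by DESeq2 and 1 at an unadjusted p under 0.05.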
